A study of Mus musculus with 24 samples.

Results

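The thioredoxin and peroxiredoxin system was followed through 10 genes of the mouse colon: Txn1, Txnrd1, Txnip, Srxn1, Glrx, Prdx1, Prdx2, Prdx3, Prdx5 and Prdx6. They were taken by symbol, out of 23329 gene symbols in the deposited files, and the estimated read counts of each gene's transcripts were summed. All 10 were found and all 10 passed the filter on low counts in every fit. Messenger RNA had been sequenced in 24 libraries of C57Bl/6 mice, in 6 groups of 4 libraries. All mice carried VilCre, a Cre recombinase driven by the villin promoter, which is active in gut epithelium. Controls carried VilCre alone, and the transgenic mice (VilCre-CMVcaNrf2) also carried a transgene for NRF2 in an active form, called caNrf2 below. Epithelial cells came from untreated control and untreated caNrf2 mice. Colon wall, which also holds muscle, connective tissue, vessels and immune cells that VilCre does not target, came from both genotypes, either untreated or treated with dextran sulfate sodium (DSS), which damages the colon lining. For age, sex, the DSS dose and schedule and the isolation of epithelial cells, no information was given in the sources used here. The labels do not say that libraries of a group came from separate animals. The p-values therefore measure only the spread between libraries, which may in part be technical. The series text speaks of triplicates, and the labels give 4 libraries in each group.

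Thioredoxin is a small protein that reduces disulfides in other proteins, and thioredoxin reductase restores it with electrons from NADPH. Peroxiredoxins break down hydrogen peroxide and organic peroxides. Most of them are reduced by thioredoxin, and some of them, when over-oxidised, are repaired by sulfiredoxin. NRF2 is known to switch on Txnrd1, Srxn1 and Prdx1 by binding antioxidant response elements near their start sites, and in the colon these enzymes meet oxidants made by microbes and inflammatory cells.

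Promoter sequences of the 3 genes with an antioxidant response element motif in the window searched are shown because the transgene encodes the factor known to bind this motif. The windows come from RefSeq (GRCm38.p6), which lists 12 promoter windows for 9 of the 10 genes. Each line gives the 250 bases before a start site, 5′ to 3′ along the gene, with the motif in capitals. All 3 genes lie on the plus strand, and the windows are chr2:152105274-152105523 for Srxn1, chr4:116685349-116685598 for Prdx1 and chr10:82858956-82859205 for Txnrd1.
Srxn1: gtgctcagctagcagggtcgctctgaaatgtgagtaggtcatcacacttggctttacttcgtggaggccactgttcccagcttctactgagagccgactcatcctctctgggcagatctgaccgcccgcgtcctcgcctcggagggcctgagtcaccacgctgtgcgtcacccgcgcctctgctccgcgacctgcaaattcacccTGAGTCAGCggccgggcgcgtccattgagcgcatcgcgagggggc
Prdx1: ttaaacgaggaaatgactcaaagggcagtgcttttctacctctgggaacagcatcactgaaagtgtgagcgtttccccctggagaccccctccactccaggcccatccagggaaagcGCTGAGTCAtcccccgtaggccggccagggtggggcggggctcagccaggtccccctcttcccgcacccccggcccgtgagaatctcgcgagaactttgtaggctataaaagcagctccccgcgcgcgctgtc
Txnrd1: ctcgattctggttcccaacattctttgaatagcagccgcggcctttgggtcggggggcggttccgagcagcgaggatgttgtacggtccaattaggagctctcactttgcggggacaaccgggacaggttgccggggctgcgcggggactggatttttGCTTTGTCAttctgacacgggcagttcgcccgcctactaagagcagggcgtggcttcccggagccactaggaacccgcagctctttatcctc

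The motif TGACNNNGC was searched on both strands from 250 bases before to 50 bases after each start, and 12.4% of 32851 mouse windows of that length held it. Of the 10 genes 9 had a window to search; the other was Prdx6. Another form, TGANTCAGC, with the base after TGA left free, was spelled with these sequences in view and was found in 1.19% of windows. At least 1 of the forms was found in 4286 of the 32851 windows. The forms overlap where a site matches both. Srxn1 held TGAGTCAGC, which matches only TGANTCAGC, with its first base at -45 from the start. It also held a TGACNNNGC match on the other strand at 28, outside the letters shown. Prdx1 held GCTGAGTCA at -133, which matches both forms on the other strand. Txnrd1 held GCTTTGTCA at -92, a TGACNNNGC match on the other strand, before the second of its 3 listed starts. The 2 of 4 deposited Txnrd1 transcripts that begin at that start took between 91.0% and 99.0% of the gene's counts in the 24 libraries. The start that RefSeq lists for Srxn1 lies upstream of the transcript start in the deposited files. These are letter matches, and binding was not measured.

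On the mm10 build, Srxn1 spans chr2:152105730-152111353 in the deposited annotation, Prdx1 chr4:116685599-116700000 and Txnrd1 chr10:82833951-82897724. Txnip lies at chr3:96557957-96561857, Prdx2 at chr8:84969648-84974313 and Glrx at chr13:75839886-75850151, all on the plus strand. On the minus strand, Txn1 lies at chr4:57943373-57956411, Prdx3 at chr19:60864066-60874538, Prdx5 at chr19:6906819-6909645 and Prdx6 at chr1:161240112-161251166. Values are for whole genes, exons of all listed transcripts together.

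Library totals ran from 6683803 to 15399862 counts in epithelial cells and from 20232309 to 154336039 in colon wall. In CPM (counts scaled to library size) Nfe2l2, which encodes NRF2, did not overlap between genotypes in any of the 3 settings. It was at 219.5 to 334.9 CPM in caNrf2 and 134.0 to 179.4 in control epithelial cells. In untreated wall it was at 160.4 to 244.5 and 106.6 to 152.2 CPM, and in DSS-treated wall at 167.5 to 301.3 and 106.6 to 165.1 CPM. In TPM, which also corrects for transcript length, Nfe2l2 overlapped in untreated wall, at 98.8 to 165.6 in caNrf2 and 65.6 to 125.2 in controls. It was not stated whether reads of the transgene count towards Nfe2l2. The epithelial libraries held at most 80.6 CPM summed over 6 smooth muscle markers, against at least 8697.3 in wall. Summed over 6 epithelial markers they held 7451.8 to 17144.4 CPM, which overlapped untreated wall (10897.7 to 19455.8 CPM), so these markers were not enriched in them. Goblet cell markers, 5 genes, summed to 21381.0 to 47894.8 CPM in epithelial libraries and to 6291.4 to 9301.0 CPM in untreated wall. Of these, Clca3, Fcgbp, Agr2 and Spink4 were higher in every epithelial library. Tff3 overlapped, at 175.4 to 815.8 CPM in epithelial libraries and 259.1 to 995.5 CPM in untreated wall. A pair of epithelial libraries stood apart from the other 6: control replicate 3 and caNrf2 replicate 1 held 19209.0 and 21542.2 CPM over 6 absorptive colonocyte markers (Slc26a3, Car1, Car4, Aqp8, Krt20 and Guca2a), against 1236.0 to 4528.7. Car1 alone made up 14567.4 and 16967.2 CPM of these sums. None of the 6 markers was at 0 in any library. In wall treated with DSS, 7 erythroid markers summed to between 88.3 and 10757.5 CPM, against 61.5 or less in untreated wall. Replicate 4 of every wall group carried the leading number 17 in its deposited name and all other libraries 11; the meaning of this number was not stated.

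Prdx6 was the most abundant transcript of the 10 in colon wall and not in epithelial cells. Levels of different genes are compared in TPM, which corrects for transcript length and library size. In untreated control wall Prdx6, the peroxiredoxin that takes its electrons from glutathione, was at 3729 ± 891.3 TPM (SD, n = 4). Txn1, thioredoxin itself, followed at 1436.6 ± 186.4 TPM, with its highest library below the lowest of Prdx6. Txnip, which binds thioredoxin and blocks it, came next at 955.4 TPM and then Prdx1 at 723.2 TPM, again without overlap between neighbours. Prdx2 (377.8 TPM) and Prdx5 (354.7 TPM) overlapped each other, and Glrx (166.1), Txnrd1 (133.0) and Prdx3 (125.4) overlapped as neighbours. Srxn1 was lowest at 87.7 TPM, without overlap with Prdx3.

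Prdx6 and Txn1 were first and second in the other 3 wall groups too, without overlap with each other or with the next gene. Prdx6 means were 3806 TPM in untreated caNrf2 wall, 4043.5 TPM in control wall with DSS and 4813.2 TPM in caNrf2 wall with DSS. In epithelial cells Txn1 was first, at 1028 TPM in controls and 1193.5 TPM in caNrf2 cells, and Txnip second, at 969 and 714 TPM, with overlap between them in controls. Prdx6 was at rank 5 in control epithelial cells, at 339.3 ± 241.5 TPM, and at rank 4 in caNrf2 epithelial cells, at 549.6 ± 394.2 TPM, and overlapped the next gene in both. Srxn1 was the lowest of the 10 in control epithelial cells (72.6 TPM) and the eighth in caNrf2 epithelial cells (161.6 TPM). In caNrf2 wall with DSS it was the seventh, at 233.7 TPM, and overlapped Prdx2 and Txnrd1.

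Prdx6 made up 60.9% to 76.2% of the summed TPM of the 5 peroxiredoxins in the 16 wall libraries, and 12.6% to 38.2% in the 8 epithelial ones. The other 4 peroxiredoxins together covered overlapping ranges, 1368 to 2189 TPM in wall and 1334 to 1816 TPM in epithelial cells. The lower peroxiredoxin total of epithelial libraries, 1551 to 2939 TPM against 4014 to 7595 TPM in wall, was thus carried by Prdx6.

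**Figure D1:**
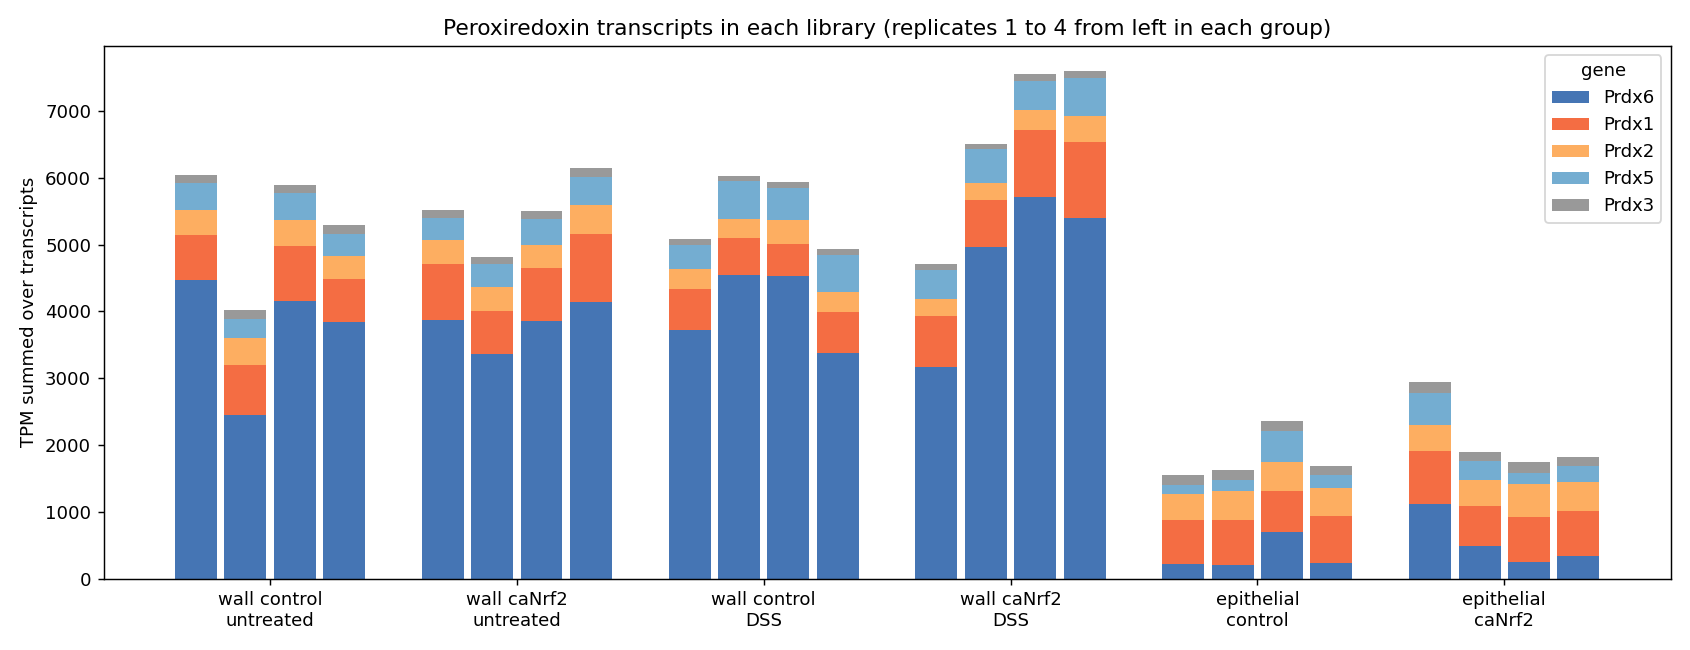
Stacked TPM of Prdx6, Prdx1, Prdx2, Prdx5 and Prdx3 in each of the 24 libraries, replicates 1 to 4 from the left in each group. The Prdx6 segment is the largest in all 16 wall libraries, and the epithelial totals stay at or below 2939 TPM.

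Prdx6 was lower in epithelial cells than in untreated wall in both genotypes. In CPM, which are scaled for library size and not for length, Prdx6 was at 258.6, 251.2, 1003.0 and 260.2 in control epithelial replicates 1 to 4, and at 6847.6, 3388.5, 6922.3 and 4411.5 in untreated control wall. In caNrf2 mice it was at 1612.2, 575.8, 285.9 and 418.3 CPM in epithelial cells and at 5268.8, 5147.0, 5122.3 and 5759.6 CPM in wall. The groups did not overlap in either genotype, and the highest epithelial value of each genotype came from the library that stood apart on colonocyte markers. The log2 fold change of epithelial cells against wall was -3.37 ± 0.56 (SE) in controls and -2.70 ± 0.54 in caNrf2 mice, with edgeR adjusted p-values of 0.000196 and 0.000854. Without these libraries the differences were -4.24 ± 0.29 and -3.51 ± 0.28, and within the libraries of leading number 11 they were -3.49 and -2.69; all passed. Some epithelial and untreated wall libraries share a number in their deposited names and may come from the same animal. They were treated as separate samples, and the errors and p-values between tissues rest on that. In bulk samples, fewer cells of a type and less RNA per cell cannot be told apart.

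Prdx6 was the 1 gene of the 10 called in each tissue comparison. There edgeR called 38.6% of 15073 genes in controls (19.7% lower in epithelial cells) and 43.5% in caNrf2 mice (23.5% lower). In CPM Prdx6 was also the 1 gene of the 10 whose groups did not overlap. Over all genes the share was 36.6% in controls (27.3% lower) and 39.9% in caNrf2 mice (29% lower). A count of 1 of 10 is below these shares. In TPM, Txn1 (1222.5 to 1675.6 in wall, 939.3 to 1211.8 in epithelial cells) and Prdx3 (121.6 to 129.3 and 143.0 to 158.6) did not overlap in controls either. The median log2 fold change of the 10 was -0.17 in controls and -0.19 in caNrf2 mice, beside 0.04 and -0.01 over all genes. Txn1 was at -0.47 ± 0.23 and -0.44 ± 0.23 (edgeR adjusted p = 0.119 and 0.13), and Prdx3 at 0.30 ± 0.15 in both (0.126 and 0.116). The other 7 lay between -0.50 and 0.16 in controls and between -0.56 and 0.42 in caNrf2 mice. The 6 absorptive colonocyte markers summed to 4802.8 to 10707.6 CPM in untreated wall, but they went both ways: Guca2a was at 155.5 to 628.1 CPM there and at 456.0 to 2106.9 CPM in epithelial cells, while Slc26a3, Car4 and Aqp8 were lower in all 8 epithelial libraries than in any untreated wall library. The part of cell make-up in the tissue differences was not tested. Without both libraries that stood apart, edgeR called 4 of the 10 genes in controls (Txn1, Prdx5, Prdx6 and Glrx) and 5 in caNrf2 mice (the same genes and Prdx1). Calls over all genes stayed within 1.5 times those of the main fit there, which were 38.6% and 43.5%. Counts of 4 and 5 of 10 are near these main shares.

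**Figure D2:**
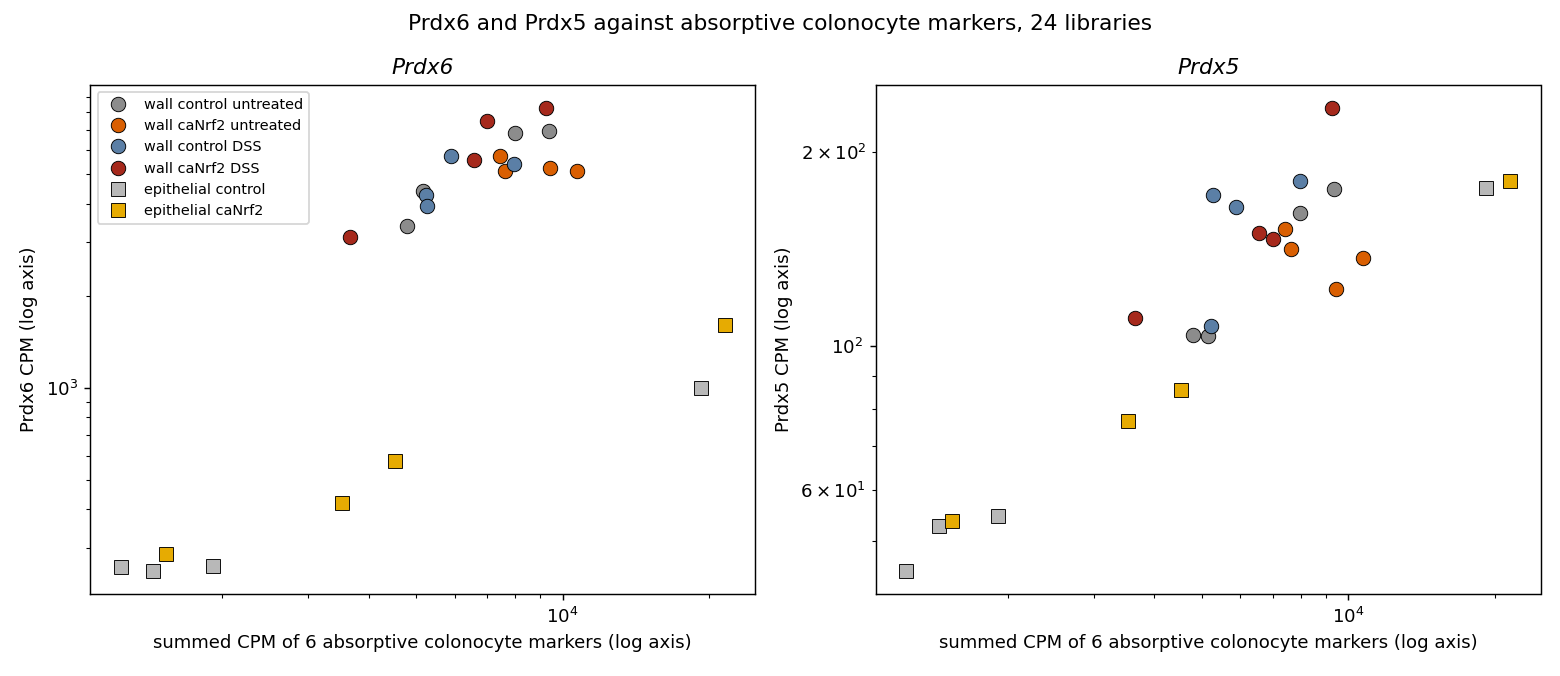
CPM of Prdx6 (left) and Prdx5 (right) against the summed CPM of 6 absorptive colonocyte markers in 24 libraries, both axes logarithmic; circles are wall, squares epithelial cells. The 2 epithelial libraries at 19209.0 and 21542.2 CPM of markers hold the highest epithelial Prdx6 and Prdx5, and their Prdx6 stays below every wall library.

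Srxn1, sulfiredoxin, had the largest fitted difference of the 10 between genotypes in each of the 3 settings, and none of the 3 passed the test. In epithelial cells Srxn1 was at 59.0, 82.4, 208.9 and 66.4 CPM (control) and 463.0, 224.0, 124.7 and 120.3 CPM (caNrf2). In untreated wall the control libraries were at 151.7, 145.2, 193.8 and 79.9 CPM and the caNrf2 libraries at 390.4, 97.6, 281.7 and 213.8 CPM. With DSS the control wall libraries were at 112.6, 175.6, 117.4 and 135.1 CPM and those of caNrf2 mice at 181.6, 286.2, 392.6 and 458.5 CPM. The groups overlapped in epithelial cells through control replicate 3, and in untreated wall through caNrf2 replicate 2. They did not overlap in wall with DSS.

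The log2 fold changes of Srxn1 for caNrf2 against control were 1.16 ± 0.56 in epithelial cells, 0.84 ± 0.36 in wall without DSS and 1.24 ± 0.36 in wall with DSS. The edgeR adjusted p-values were 0.527, 0.411 and 0.836. Averaged over untreated and DSS-treated wall, which uses 8 libraries of each genotype, Srxn1 differed by 1.04 ± 0.25 (edgeR adjusted p = 0.15). Without untreated caNrf2 replicate 2, the library with the lowest Srxn1 of its group, this average was 1.18 ± 0.21 and passed (edgeR adjusted p = 0.0144). Removing the lowest caNrf2 library raises the difference in any case, so this pass is no separate support. Within the wall libraries of leading number 11 it was 0.88 ± 0.29 (edgeR adjusted p = 0.359). The Nfe2l2 level of untreated caNrf2 replicate 2, at 160.4 CPM, was also the lowest of its group, and its part in the low Srxn1 was not tested. Without the 2 epithelial libraries that stood apart, the epithelial difference was 1.21 ± 0.23 and passed (edgeR adjusted p = 0.023). These libraries held the highest Srxn1 of their groups, 208.9 CPM (control) and 463.0 CPM (caNrf2). Leaving them out narrows the spread in any case, so this pass is no separate support. Calls over all genes rose in that setting too, as listed at the end. The transgene effect on Srxn1 was not shown to differ between epithelial cells and untreated wall (difference 0.32 ± 0.70, edgeR adjusted p = 0.954).

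**Figure D3:**
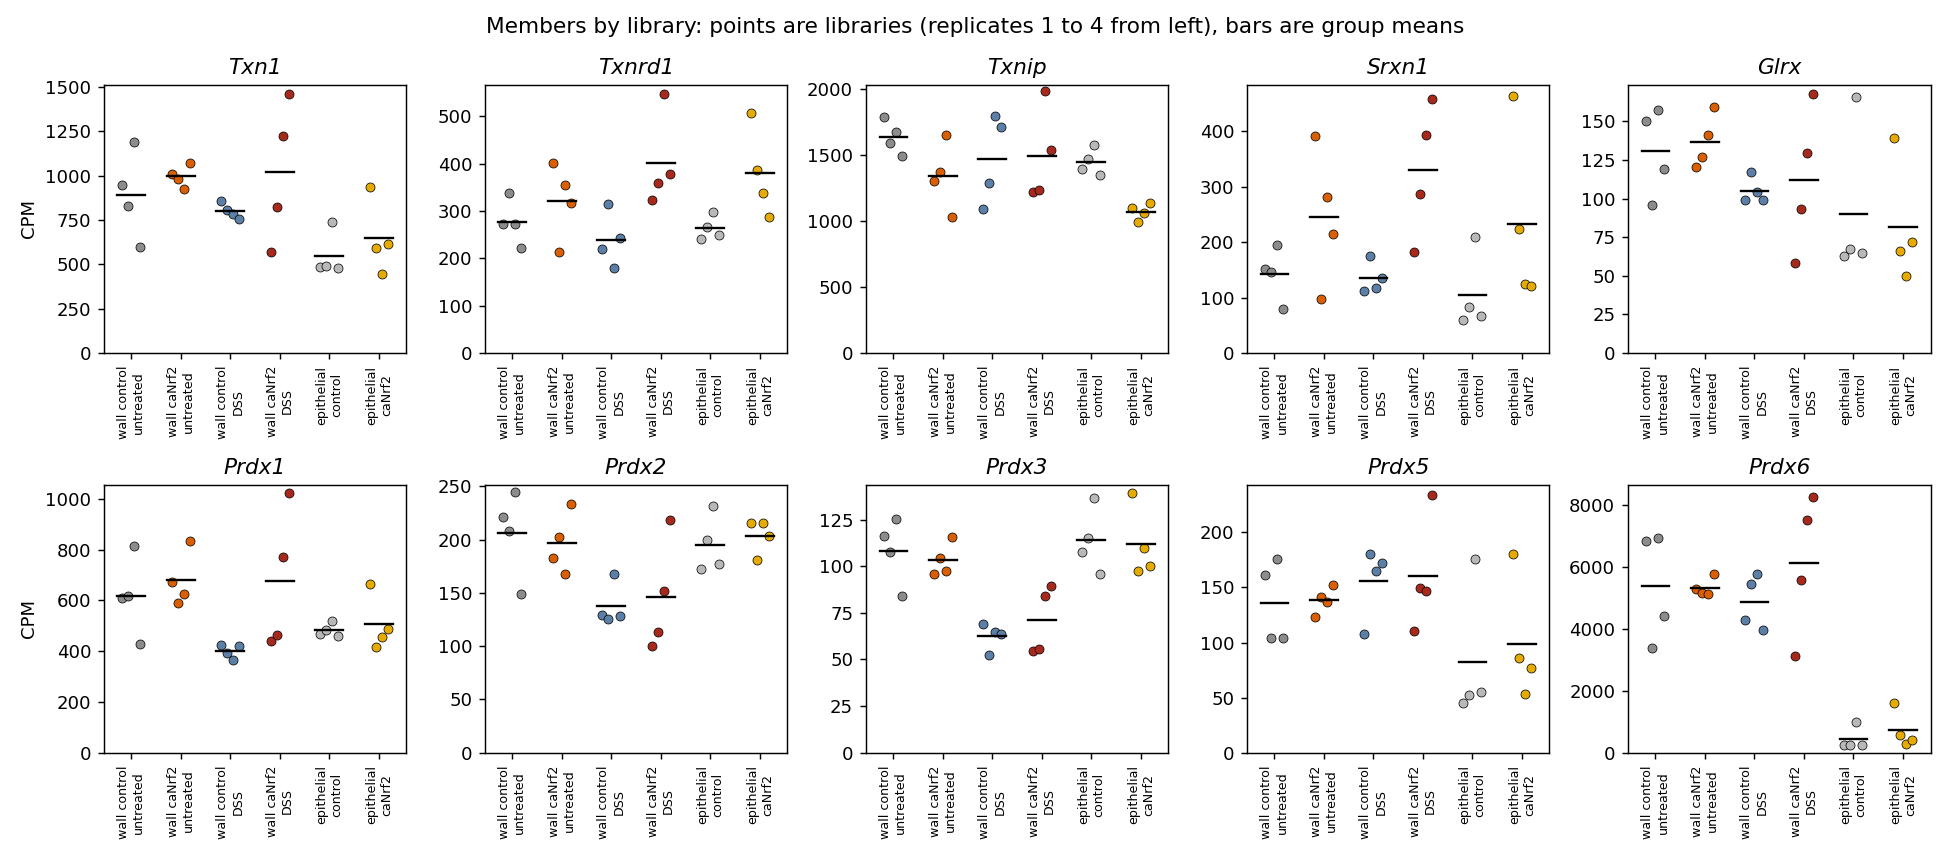
CPM of the 10 genes in 24 libraries, 1 panel per gene with its own axis from 0; points are replicates 1 to 4 from the left and bars are group means. Srxn1, Txnrd1 and Prdx1 in caNrf2 wall with DSS lie above all 4 control libraries with DSS, and Txnip in caNrf2 epithelial cells lies below all 4 controls.

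Txnrd1, the cytosolic thioredoxin reductase, was at 323.8, 359.2, 547.7 and 378.3 CPM in caNrf2 wall with DSS and at 219.3, 315.3, 179.3 and 243.4 CPM in control wall with DSS. Prdx1, a cytosolic peroxiredoxin, was at 440.7, 464.7, 770.3 and 1023.1 CPM against 424.8, 392.8, 367.2 and 420.5 CPM in the same groups. In CPM neither gene overlapped between genotypes there, and for Prdx1 the gap between the nearest libraries was small. In TPM Txnrd1 overlapped, with caNrf2 replicate 4 at 169.9 and control replicate 2 at 179.7. The log2 fold changes were 0.71 ± 0.22 for Txnrd1 and 0.71 ± 0.24 for Prdx1, with edgeR adjusted p-values of 0.944 and 1. By CPM, Srxn1, Txnrd1 and Prdx1 were thus the 3 of 10 genes that lay wholly higher in caNrf2 wall with DSS. Over all genes the share in CPM was 0.883% (1.5% in either direction). By adjusted p, edgeR called 0 of the 10 there and 0.0933% of 16074 genes. The unadjusted edgeR p-values of the 3 genes were 0.00307, 0.00468 and 0.00859, and 407 genes had one below 0.05.

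In the other settings the pattern of these genes differed in detail. In epithelial cells Txnrd1 was at 507.5, 386.8, 337.2 and 287.1 CPM in caNrf2 cells and at 241.7, 265.3, 297.9 and 250.1 CPM in controls. Only the lowest caNrf2 and the highest control library overlapped in CPM, and none did in TPM. The log2 fold change was 0.55 ± 0.20 (edgeR adjusted p = 0.4). In untreated wall Txnrd1 was at 401.0, 213.3, 354.7 and 316.7 CPM in caNrf2 mice against 273.0, 338.0, 273.4 and 221.1 CPM, a difference of 0.26 ± 0.22 (0.753). Prdx1 ranges overlapped in both settings: 414.8 to 666.0 CPM in caNrf2 and 461.8 to 519.9 CPM in control epithelial cells, and 588.4 to 834.8 against 429.5 to 812.9 CPM in untreated wall. Its log2 fold changes there were 0.09 ± 0.18 and 0.18 ± 0.24. Averaged over both wall settings, Txnrd1 differed by 0.48 ± 0.15 and Prdx1 by 0.44 ± 0.17 (edgeR adjusted p = 0.499 and 0.784).

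The ratio of Srxn1 to Prdx1 in TPM, the repair enzyme against one of its substrates, was 0.219 to 0.327 in caNrf2 and 0.141 to 0.238 in control wall with DSS. In untreated wall it was 0.0882 to 0.308 and 0.0988 to 0.132, and in epithelial cells 0.131 to 0.37 and 0.067 to 0.214. The ranges overlapped in all 3 settings, and the ratio was not tested.

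In CPM, Txnip, the thioredoxin inhibitor, was the only one of the 10 genes that did not overlap between genotypes in epithelial cells. Txnip was lower in caNrf2 cells. In TPM Txnrd1 did not overlap there either, at 157.4 to 239.5 in caNrf2 cells and 136.9 to 153.2 in controls. Txnip values were 1390.8, 1470.2, 1574.9 and 1348.5 CPM (control) and 1096.7, 994.3, 1057.5 and 1135.2 CPM (caNrf2). Among all genes, 6.96% did not overlap and 4.27% lay wholly lower in caNrf2 epithelial cells. The log2 fold change of Txnip was -0.42 ± 0.13 and did not pass (edgeR adjusted p = 0.331). In that comparison edgeR called 0% of 12941 genes, none of the 10 among them, with 1344 genes at an unadjusted p below 0.05 (Txnrd1 and Txnip among them) and 215 genes called by DESeq2. Without the 2 libraries that stood apart, Txnip was at -0.37 ± 0.09 and passed (edgeR adjusted p = 0.0409). In that setting calls over all genes rose as well, as listed at the end.

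In untreated wall Txnip was at 1302.8, 1373.4, 1651.3 and 1028.6 CPM in caNrf2 mice and at 1784.7, 1592.0, 1669.5 and 1491.8 CPM in controls, so that 1 caNrf2 library lay within the control range. The log2 fold change was -0.25 ± 0.20 (edgeR adjusted p = 0.743). With DSS the genotypes overlapped widely, at 1215.4 to 1980.0 and 1092.1 to 1790.9 CPM, and the difference was -0.03 ± 0.20.

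The remaining 6 genes overlapped between genotypes in every setting. In epithelial cells Prdx6 differed by 0.70 ± 0.66, with a wide error. Txn1, Prdx2, Prdx3, Prdx5 and Glrx differed by between -0.14 and 0.26 there. In untreated wall the 6 genes differed by between -0.03 and 0.20, and in wall with DSS by between -0.01 and 0.31. No edgeR adjusted p of these 6 genes was below 0.802 in any of the 3 settings. Of the 10 genes, 7 were fitted above 0 in epithelial cells (median 0.17), 7 in untreated wall (median 0.09) and 8 in wall with DSS (median 0.21). Over all genes the medians were 0.00, -0.02 and -0.02, and 50.1%, 47.2% and 45% were fitted above 0. In untreated wall edgeR called 0 of the 10 genes and 0.224% of all genes, and for the average over both wall settings 0 of the 10 and 0.274%. None of the 10 lay apart between genotypes in untreated wall, where 6.78% of all genes did.

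In epithelial cells the spread within groups was set by the same 2 libraries for several genes. Prdx5, which acts in mitochondria and peroxisomes, was at 175.6 CPM in control replicate 3 against 44.9 to 54.7 in the other controls, and at 180.4 CPM in caNrf2 replicate 1 against 53.6 to 85.6. Glrx, glutaredoxin, which removes glutathione from proteins, was at 165.7 against 62.6 to 67.1 CPM and at 139.2 against 49.9 to 72.0 CPM. Txn1 was at 740.6 against 478.8 to 490.2 CPM and at 938.8 against 448.2 to 612.6 CPM. The mitochondrial Prdx3 and the cytosolic Prdx2 were less spread, with SDs of log2 CPM of at most 0.23 in epithelial groups, against 0.74 to 1.07 for Prdx5 and Prdx6. These libraries were the ones with the most absorptive colonocyte marker RNA and, at 6.02 and 5.53 CPM, the least endothelial marker RNA. They also held less crypt stem marker RNA, 199.9 and 204.3 CPM against 485.8 to 621.1, and the least fibroblast marker RNA, 7.04 and 19.7 CPM against 50.6 to 184.9. The part of these markers in the values was not tested.

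Prdx3, the mitochondrial peroxiredoxin, fell with DSS in both genotypes and was the only one of the 10 genes called in either. It was at 116.0, 107.9, 125.6 and 84.1 CPM in untreated control wall and at 69.0, 52.5, 64.7 and 63.6 CPM with DSS. In caNrf2 wall it was at 96.1, 104.4, 97.2 and 115.5 CPM untreated and at 54.6, 55.7, 83.8 and 89.6 CPM with DSS. The groups did not overlap in either genotype. The log2 fold change was -0.69 ± 0.16 in controls and -0.52 ± 0.16 in caNrf2 mice (edgeR adjusted p = 0.00382 and 0.018). Without DSS-treated caNrf2 replicate 2, the difference in caNrf2 wall was -0.42 and no longer passed (edgeR adjusted p = 0.0655). Within the libraries of leading number 11 the differences were -0.84 and -0.61, both past the threshold. The change in TPM was smaller, with fitted log2 differences of -0.54 ± 0.11 and -0.37 ± 0.11 in limma, both past the threshold. Markers of other cell types moved with DSS as well. Lgr5, a crypt stem cell marker, was at 5.92 to 10.9 CPM in untreated wall and at 0.283 to 0.701 CPM with DSS. Axin2, of the same list, was at 33.2 to 58.4 CPM and at 5.81 to 8.38 CPM in the control groups, and Ascl2 was lower too. The list did not move as a whole: Lrig1 and Smoc2 overlapped in both genotypes. In the control groups Lrig1 was at 124.9 to 207.1 CPM untreated and 120.2 to 158.5 CPM with DSS, and Smoc2 at 46.4 to 109.2 and 20.2 to 52.1 CPM. Endothelial markers summed to 76.6 to 105.4 CPM untreated and 189.2 to 257.2 CPM with DSS, and neutrophil markers to 7.12 to 10.8 and 18.2 to 45.8 CPM. Their part in the fall of Prdx3 was not tested.

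DSS changed a large share of all genes: edgeR called 39.2% of 16074 genes in control wall (16.1% lower) and 41.2% in caNrf2 wall (18.1% lower), beside 1 of the 10 genes in each. Groups did not overlap for 34.7% of all genes in controls (18.9% lower) and 35.3% in caNrf2 mice (17.3% lower). Among the 10, CPM of the groups did not overlap for Prdx3 in both genotypes and for Prdx1 in controls. In TPM Prdx5 in caNrf2 wall did not overlap either, at 340.5 to 411.8 untreated and 422.6 to 578.2 with DSS. Prdx1 in control wall was at 611.1, 619.1, 812.9 and 429.5 CPM untreated, and all 4 libraries with DSS lay below these, with a log2 fold change of -0.51 ± 0.24 (edgeR adjusted p = 0.0947). In caNrf2 wall Prdx1 was at 674.1, 588.4, 625.3 and 834.8 CPM untreated and spread from 440.7 to 1023.1 CPM with DSS, a difference of 0.01 ± 0.24. The DSS effect on Prdx1 was not shown to differ between genotypes (difference 0.52 ± 0.33, edgeR adjusted p = 0.804).

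Prdx2, a cytosolic peroxiredoxin that is abundant in red blood cells, was at 221.6, 208.4, 244.3 and 149.2 CPM in untreated control wall and at 129.1, 125.5, 167.3 and 128.5 CPM with DSS. In caNrf2 wall it was at 196.6 ± 28.5 CPM (SD, n = 4) untreated and at 146.0 ± 53.0 CPM with DSS, with overlap. Its log2 fold changes were -0.47 ± 0.21 and -0.40 ± 0.21 and did not pass (edgeR adjusted p = 0.0877 and 0.136). The highest control library with DSS, replicate 3, had the most erythroid marker RNA, 10757.5 CPM, and also the most smooth muscle marker RNA, 35258.2 CPM. Control replicate 2, at 1428.5 CPM of erythroid markers, had the lowest Prdx2 of its group. Of the caNrf2 libraries with DSS, replicate 2 (2502.4 CPM of erythroid markers) was at 113.7 CPM of Prdx2, the second lowest, and replicate 4 (1571.2 CPM) at 218.3 CPM, the highest. The part of these markers in Prdx2 was not tested. Without the 4 DSS libraries over 1000 CPM of erythroid markers, a selection made after the values were seen, Prdx2 was at -0.64 ± 0.22 in controls and -0.63 ± 0.22 in caNrf2 mice, and the latter passed (edgeR adjusted p = 0.0584 and 0.0483).

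The other 7 genes differed with DSS by between -0.21 and 0.31 in controls and between -0.26 and 0.44 in caNrf2 mice, none past the threshold. Srxn1 was at 0.04 ± 0.35 in controls and 0.44 ± 0.35 in caNrf2 mice, and Txnrd1 at -0.11 ± 0.22 and 0.34 ± 0.22. Prdx5 was at 0.31 ± 0.22 and 0.24 ± 0.22, and Prdx6 at -0.04 ± 0.28 and 0.22 ± 0.28. The median of the 10 was -0.07 in controls and 0.12 in caNrf2 mice, beside 0.06 and 0.01 over all genes. When the DSS effect was compared between genotypes, edgeR called 0 of the 10 genes and 0% of all genes, with 0 of the 10 and 1279 of all genes at an unadjusted p below 0.05 and 40 of all genes called by DESeq2. For the transgene effect compared between epithelial cells and untreated wall it also called 0 of the 10 and 0% of all genes, with 0 of the 10 and 1203 of all genes at an unadjusted p below 0.05 and 66 called by DESeq2. The spread of caNrf2 wall with DSS was the widest of the wall groups for Txn1, Prdx1, Prdx2, Prdx3, Prdx5, Prdx6 and Glrx, with SDs of log2 CPM of 0.38 to 0.66. Replicate 1 was the lowest library of that group for all 10 genes. It also held the least absorptive colonocyte marker RNA of all wall libraries, 3653.1 CPM; the part of this in the spread was not tested.

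**Figure D4:**
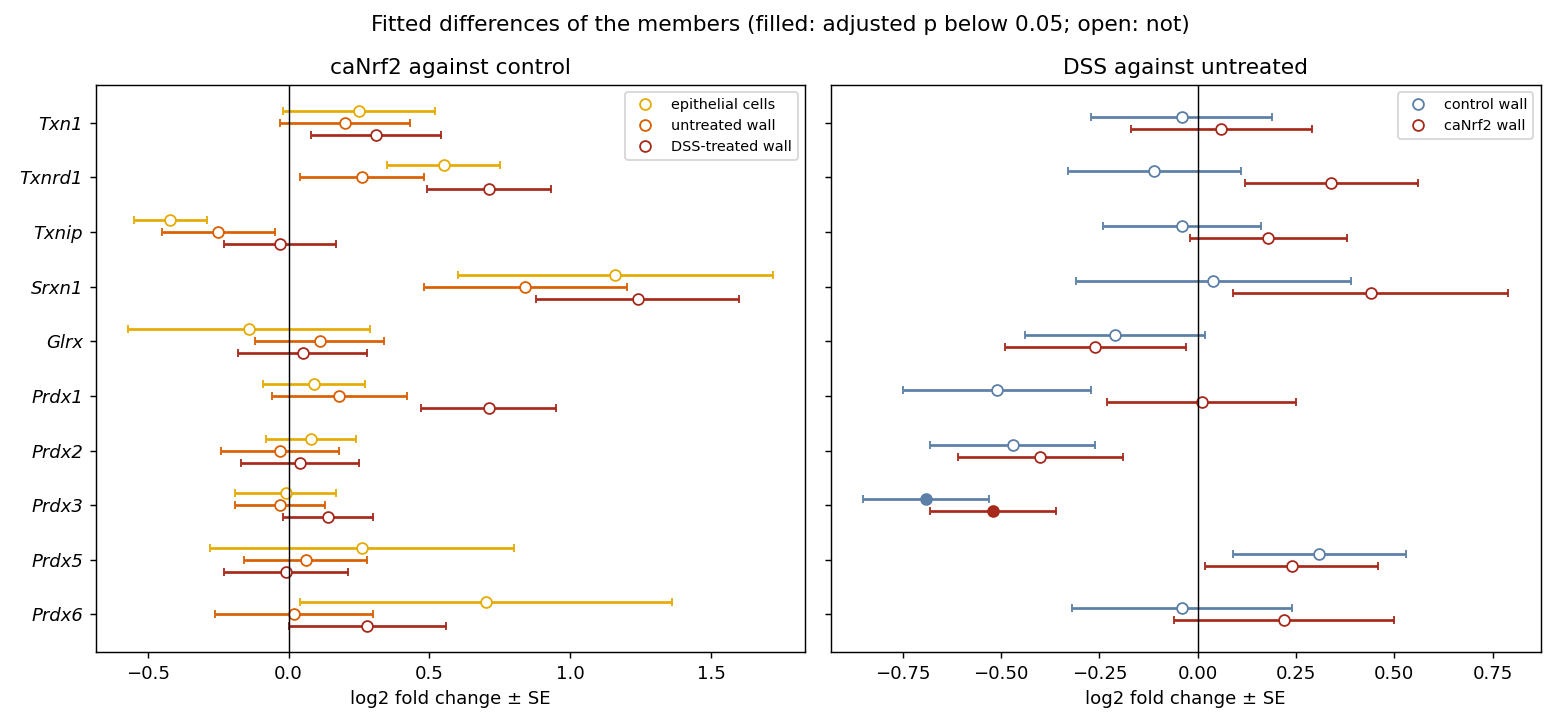
Fitted log2 fold changes with SE of the 10 genes, for caNrf2 against control in 3 settings (left) and DSS against untreated wall in each genotype (right); filled points passed the edgeR test. Prdx3 with DSS is filled in both genotypes, and Srxn1 lies farthest to the right among the transgene differences.

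A wider list of 21 thiol redox genes was read beside the 10. Gsr, glutathione reductase, the enzyme that keeps glutathione reduced, was the 1 of 21 that passed for the transgene. Averaged over both wall settings it rose by 0.80 ± 0.15 (edgeR adjusted p = 0.0267), against Txnrd1 at 0.48 ± 0.15. None of the 21 passed in any single setting, and their medians were 0.03 in epithelial cells and 0.01 in wall, untreated or with DSS. Among 5 reference genes of NRF2, 4 passed for the same average: Nqo1 (2.64 ± 0.36), Gclc (2.81 ± 0.32), Gclm (1.82 ± 0.27) and Slc7a11 (2.67 ± 0.37). The fitted differences of these 4 were larger than that of Srxn1, though no test compared them. The other reference gene, Hmox1, was at 0.51 ± 0.31 and did not pass (edgeR adjusted p = 0.999). Without the 4 DSS libraries over 1000 CPM of erythroid markers, edgeR called 0 genes of all for this average, so that Gsr and these 4 genes no longer passed either. All 6 genes of an NADPH supply list were fitted above 0 in each of the 3 settings, with medians of 0.51, 0.41 and 0.58, and none passed. Of all genes, 50.1%, 47.2% and 45% were fitted above 0 in epithelial cells, untreated wall and wall with DSS.

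With DSS, 8 of the 21 thiol genes fell and 5 rose in control wall, and 5 fell and 2 rose in caNrf2 wall, beside 39.2% of all genes called in controls (16.1% lower) and 41.2% in caNrf2 mice (18.1% lower). The 13 of 21 called in control wall are above the share of all genes there. The 7 of 21 in caNrf2 wall are below the share there. The list as a whole was not tested. In control wall the mitochondrial reductase Txnrd2 fell by 0.66, Prdx4 of the endoplasmic reticulum by 0.98 and Gsr by 0.77 on the log2 scale, while nucleoredoxin (Nxn) was at 1.11 and Msrb3, a methionine sulfoxide reductase, at 0.83. In caNrf2 wall Txnrd2 fell by 0.58 and Prdx4 by 0.99, and Nxn was at 1.17 and Msrb3 at 1.05, all past the threshold. Gsr was at -0.25 there and did not pass, and its DSS effect was not shown to differ between genotypes (difference 0.53, edgeR adjusted p = 0.739). Txn2, the mitochondrial partner of Prdx3, was at -0.44 ± 0.20 and -0.40 ± 0.20 (edgeR adjusted p = 0.0945 and 0.123). Summed smooth muscle markers ran from 8697.3 to 35258.2 CPM with DSS and from 11599.0 to 16524.7 CPM untreated, and 5 fibroblast markers from 1730.0 to 3565.8 and from 907.5 to 1182.7 CPM. Their part in these differences was not tested. Between epithelial cells and untreated wall, 3 of the 21 were higher and 4 lower in controls, and 4 higher and 5 lower in caNrf2 mice, near the 38.6% and 43.5% of all genes called. Msrb3 was among the lower ones in both, at -3.68 and -3.54.

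The genes whose pattern was most like that of a member were ranked by Pearson's r of log2 CPM over 24 libraries, after the mean of each of the 3 settings (epithelial cells, untreated wall, wall with DSS) had been subtracted, among 12881 genes. For Txnrd1 they were Gsr (r = 0.92), Akr1b8 (0.89), Cbr3 (0.89), Srxn1 (0.88) and Gclm (0.86). For Srxn1 they were Ftl1 (0.95), Cbr1 (0.93), Blvrb (0.92), Akr1b8 (0.92) and Tsku (0.91). For Prdx1 they were Hrsp12 (0.90), Taldo1 (0.85), Akr1c12 (0.84), Gsto1 (0.84) and Esd (0.84), with Txn1 at 0.83 and Prdx3 at 0.80. Txnip followed none of the other 9 genes closely, with r between -0.12 and 0.34, and its nearest genes were Nfkbia (0.75), Nedd9 (0.71) and Slc11a2 (0.68). The points share libraries, genotype and library scaling, and these values are a description.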

How the data were processed

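The authors deposited, for 30383 RefSeq transcripts per library, expected counts, a posterior count estimate and TPM values, per the file headers; the submitters' processing notes list RSEM 1.2.11, FastQC and mm10. No aligner or strand setting was given in the sources used here. Expected counts were summed per gene symbol and rounded. edgeR 4.0.16 (limma 3.58.1, R 4.3.3) ran its quasi-likelihood F test with TMM scaling, filterByExpr and Benjamini-Hochberg adjustment over all genes at 0.05, on 8 epithelial libraries, on 16 wall libraries, and on 16 epithelial and untreated wall libraries. SE was taken as the absolute log2 difference over the root of F. Displayed CPM share 1 TMM scaling over 24 libraries, so they can differ slightly from fitted values. All 10 listed genes are named; of the other lists, some genes that passed or pair with one of the 10 are named as examples. No 2 libraries of a group agreed within sampling noise (lowest chi-square per gene 10.5 over 36 pairs). Steps were tested on simulated counts. The genes, lists, tests and motifs were chosen with earlier results of these data known. Alternatives were DESeq2 1.42.0, voom, RLE scaling, no filter, TPM in limma on log2(TPM + 1), the deposited posterior count estimate, a replicate block, left-out libraries, the leading number of the deposited names and fewer groups.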

Additional observations from a re-analysis of the deposited data

Results flagged for a closer look

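In groups of 4, a library was taken as far from the others where its gap to the nearest, as a share of the group's range, exceeded Dixon's critical value. Of 60 groups of 4 values, 6 held such a library, and chance alone gives about 1 in 20. Control epithelial replicate 3 was far above the other 3 controls for 5 genes: Txn1 at 740.6 CPM (others 478.8 to 490.2), Srxn1 at 208.9 CPM (59.0 to 82.4), Prdx5 at 175.6 CPM (44.9 to 54.7), Prdx6 at 1003.0 CPM (251.2 to 260.2) and Glrx at 165.7 CPM (62.6 to 67.1). This library held 19209.0 CPM of absorptive colonocyte markers, against 1236.0 to 1912.6 CPM in the other controls. DSS-treated control wall replicate 3 was far above its group for Prdx2, at 167.3 CPM (others 125.5 to 129.1), and held 10757.5 CPM of erythroid markers, against 88.3 to 1428.5 CPM. It also held 35258.2 CPM of smooth muscle markers, against 8697.3 to 18178.1 CPM, and replicate 2, with 1428.5 CPM of erythroid markers, had the lowest Prdx2 of the group. The part of these markers in the values was not tested.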

How the results depend on the processing

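Over 36 alternative settings, the number of the 10 genes called was within 1.5 times the main number in 223 of 253 values and moved in 30. For caNrf2 in epithelial cells 0 were called, but 4 with voom (Txnrd1, Srxn1, Prdx6, Txnip) and 2 without both libraries that stood apart. Calls over all genes rose in these settings as well. For the average over wall DESeq2 called 1 (Srxn1), and leaving out single libraries gave 0 to 1. For DSS in controls 1 was called, but 3 with DESeq2, voom, libraries of leading number 11 only or only the compared groups (Prdx1 and Prdx2 added), 2 with TPM, and 1 to 3 without single libraries (above 1 without replicate 4 of untreated control, untreated caNrf2 or DSS-treated caNrf2 wall, or replicate 1 of the last). For DSS in caNrf2 wall 1 was called, but 2 with voom, leading number 11 only or without 4 erythroid-rich libraries (Prdx2 added; this setting was chosen after seeing the data), and 0 to 2 without single libraries (0 without DSS-treated caNrf2 replicate 2, 2 without replicate 4). For epithelial cells against wall, controls gave 5 with voom, 3 with TPM, 2 with leading number 11 only, 4 without both libraries that stood apart and 1 to 4 without single libraries; caNrf2 mice gave 4, 4, 1, 5 and 1 to 3. The single libraries that moved these counts were control epithelial replicate 3, caNrf2 epithelial replicate 1 and untreated control wall replicate 4. For the tissue difference voom called 1 (Prdx6). In the main fits edgeR called 39.2% and 41.2% of all genes for DSS in control and caNrf2 wall. For tissue it called 38.6% and 43.5% in controls and caNrf2 mice. Calls over all genes that moved by more than 1.5 times are given in the next paragraph. In the settings not named there they stayed within 1.5 times the main number. The cause of these differences was not tested.

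For single genes no difference that had an unadjusted p below 0.05 changed sign; the others were taken to have no direction. Pairing of libraries by replicate number was not shown, and these correlations cannot exclude it. Correlations of same-numbered libraries ran from -0.52 to 0.36 and were not all above 0.1 in any of 15 group pairs. With the replicate block the counts of the 10 genes called stayed at 0, 0, 0 and 0 for the transgene, 1 and 1 for DSS, 1 and 1 for tissue and 0 and 0 for both differences. Over all genes, calls moved by more than 1.5 times as follows. For caNrf2 in epithelial cells, 0 became 215 with DESeq2, 1292 with voom, 835 without both libraries that stood apart and 0 to 24 without single libraries. In untreated wall, 36 became 235 with DESeq2, 2491 with voom, 3 with TPM, 7 with the block, 19 with a term for the leading number, 404 within number 11, 10 with only the compared groups, 6 without the erythroid-rich libraries and 5 to 320 without single libraries. In wall with DSS, 15 became 43 with DESeq2, 0 with voom, the block, number 11 or without the erythroid-rich libraries, and 0 to 36 without single libraries. For the average, 44 became 105, 204, 29, 11 and 0 with DESeq2, voom, the block, number 11 and without the erythroid-rich libraries, and 24 to 73 without single libraries. For DSS in controls, 6300 became 9501 with voom and 3324 without the erythroid-rich libraries. For tissue in controls, 5821 became 10235 with voom. For the genotype difference of the DSS effect, 0 became 40 with DESeq2, 113 with voom, 1 with TPM and 98 within number 11. For the tissue difference of the transgene effect, 0 became 66 with DESeq2, 827 with voom, 5 within number 11 and 70 without both libraries that stood apart. Depth was at most 15399862 counts in epithelial cells; its effect on the calls was not tested.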
